A study of Homo sapiens with 27 samples.

Results

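The mitotic spindle and G2/M genes examined here are 50 named genes that encode proteins for entry into mitosis, the spindle, the kinetochore and cell division. They were chosen by name, with earlier results of these data known, and all 50 were among the 14008 genes of the deposited count table. The counts come from QuantSeq libraries, which read the 3' ends of messenger RNA, of teloHAEC, endothelial cells of the human aorta immortalised with telomerase. Cas9 ribonucleoprotein was electroporated into 150000 cells for each library and RNA was taken 2 days later, so the controls had also received Cas9 and a guide RNA. The study asked what the removal of candidate enhancers does to gene expression.

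The 27 libraries fall into 2 experiment sets. In set A, 4 libraries came from cells whose guides flanked a candidate enhancer of SMAD3, 4 from cells given the guide against HPRT, and 4 from cells given a non-targeting guide. In set B, 4 libraries came from cells whose guides flanked a candidate enhancer of LDAH (C2orf43), 4 from HPRT-targeted cells and 7 from negative control cells. The libraries are of bulk cell populations, and the labels describe no cloning of edited cells. The labels do not tie replicates to separate cultures beyond the electroporation, and a p-value here measures library-to-library spread, which may be technical. The 12 libraries of set A hold 4761002 to 7752413 counts each, and the 15 of set B 3430481 to 6414050. Levels are given as CPM, each count relative to the library's total after scaling by the normalisation factors of the set, so a level of one set is not read directly against the other. All 50 members passed the filter on low counts in every fit.

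Cells prepare for division by switching on, late in the cycle, a shared program of genes. Cyclin B with CDK1 drives entry into mitosis, the kinesin motors and their partners build the spindle, the kinetochore couples chromosomes to it, and the spindle checkpoint restrains the anaphase-promoting complex (APC/C) until every chromosome is attached. Genes of this program are repressed by the DREAM complex and activated by B-MYB and FOXM1, which reach promoters through the MuvB core and the cell cycle homology region (CHR), often near CCAAT boxes bound by NF-Y. In endothelial cells, which rest in the intact vessel, these genes mark cells that are cycling in culture. In bulk RNA, fewer cycling cells and less of the messenger per cycling cell cannot be told apart.

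The promoters show what the members have in common outside the measured values. RefSeq (GRCh38.p14) gave 53 promoters for 43 of the 50 members, each 300 bases long, from 250 before to 50 after the start. On both strands, TTTGAA or TTCGAA (the letters of the CHR) stood in 38 of the 53 (71.7%), against 16.4% of all 35116 RefSeq promoters of this length. CCAAT stood in 38 of the 53 (71.7%), against 34.6% of all promoters. It stood more than once in 24 of the 53 (45.3%), against 10.8% of all. Both stood in 29 of the 53 (54.7%), against 6.38% of all, and the 29 belonged to 27 members. The 2 motifs shared bases in 2 of the members' promoters (3.77%) and in 0.128% of all. A match is a description of the letters, not evidence of a bound site. Of 52 CHR matches in the members' promoters, 32 began between 60 bases before and 20 after the start. A site that lies in overlapping promoters of a gene, as in CDC25C and ECT2, is counted in each. The position was not counted for all promoters.

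The promoters of 6 members that hold both motifs are printed because the results below turn on these genes: 2 with very long coding sequences (MKI67, CENPF), 1 with a very short one (CKS2), and 3 that stand first in a comparison or define entry into mitosis (SGO1, CCNB2, PLK1). Each is read 5' to 3' in the direction of its gene, with the CHR letters and CCAAT, or their reverse complements, in capitals. They lie at chr10:128126374-128126673 (minus strand), chr1:214602945-214603244 (plus), chr9:89310945-89311244 (plus), chr3:20186157-20186456 (minus), chr15:59104896-59105195 (plus) and chr16:23678639-23678938 (plus) of GRCh38.
MKI67: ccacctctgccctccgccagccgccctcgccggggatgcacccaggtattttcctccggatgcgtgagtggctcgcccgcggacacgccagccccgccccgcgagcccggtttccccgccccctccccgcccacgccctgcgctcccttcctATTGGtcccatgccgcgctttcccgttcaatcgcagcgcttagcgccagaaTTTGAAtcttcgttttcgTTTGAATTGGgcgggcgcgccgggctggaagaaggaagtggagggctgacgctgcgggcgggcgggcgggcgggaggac
CENPF: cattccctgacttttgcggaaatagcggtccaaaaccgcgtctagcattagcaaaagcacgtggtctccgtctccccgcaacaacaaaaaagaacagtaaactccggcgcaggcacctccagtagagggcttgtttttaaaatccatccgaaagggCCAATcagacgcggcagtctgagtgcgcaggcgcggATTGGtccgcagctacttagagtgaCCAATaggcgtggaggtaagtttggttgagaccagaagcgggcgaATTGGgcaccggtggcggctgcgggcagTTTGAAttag
CKS2: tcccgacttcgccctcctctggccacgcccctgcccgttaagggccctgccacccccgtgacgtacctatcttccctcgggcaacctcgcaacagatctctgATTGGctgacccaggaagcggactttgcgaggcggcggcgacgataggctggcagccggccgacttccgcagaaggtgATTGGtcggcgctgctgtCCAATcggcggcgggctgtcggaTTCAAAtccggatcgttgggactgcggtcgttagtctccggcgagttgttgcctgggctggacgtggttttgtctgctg
SGO1: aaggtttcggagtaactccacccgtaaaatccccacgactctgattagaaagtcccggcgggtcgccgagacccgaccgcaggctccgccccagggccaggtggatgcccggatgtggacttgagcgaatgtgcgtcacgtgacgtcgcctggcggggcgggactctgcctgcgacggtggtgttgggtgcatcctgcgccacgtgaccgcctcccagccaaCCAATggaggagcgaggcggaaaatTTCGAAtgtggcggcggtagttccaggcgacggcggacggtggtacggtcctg
CCNB2: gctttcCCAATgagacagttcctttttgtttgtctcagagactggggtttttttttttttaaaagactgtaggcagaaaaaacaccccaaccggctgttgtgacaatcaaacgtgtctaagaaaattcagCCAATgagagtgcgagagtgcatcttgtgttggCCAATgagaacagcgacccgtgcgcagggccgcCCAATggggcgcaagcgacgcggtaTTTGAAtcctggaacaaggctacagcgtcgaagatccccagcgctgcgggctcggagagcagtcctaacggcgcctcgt
PLK1: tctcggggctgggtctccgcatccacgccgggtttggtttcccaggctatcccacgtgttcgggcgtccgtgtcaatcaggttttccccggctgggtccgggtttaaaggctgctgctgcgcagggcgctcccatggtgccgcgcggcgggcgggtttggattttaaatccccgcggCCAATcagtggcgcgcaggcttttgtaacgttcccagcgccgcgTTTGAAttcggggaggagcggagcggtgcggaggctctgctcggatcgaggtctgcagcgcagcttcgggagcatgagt
In MKI67, 1 of the 2 CHR matches shares a base with a CCAAT box on the other strand. In CKS2, CCNB2, PLK1 and MKI67 a CHR match begins 29 bases before the start, while in CENPF it lies 40 bases after the start. SGO1 holds the TTCGAA form, which begins 3 bases before its start.

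Before the comparisons, 7 libraries must be named because they stood apart from the rest of their set in the correlation of all genes: SMAD3 deletion replicate 4, HPRT-targeted A replicate 3, LDAH deletion replicate 4, negative control B replicates 6 and 7, and HPRT-targeted B replicates 2 and 4. They came from every group except negative control A. Ribosomal protein genes took 14.9% to 17.3% of the counts in these 7 and 9.35% to 14.5% in the other 20, and the members took 0.286% to 0.493% against 0.475% to 0.769%. Results are therefore given with and without these libraries, a choice made after the data were seen. In the targeted genes, the log2 fold change against the negative control of the set was -0.44 (SE 0.14) for SMAD3 in the SMAD3 deletion, -0.76 (SE 0.40) for LDAH in the LDAH deletion and -0.28 (SE 0.19) for HPRT1 in the HPRT-targeted cells of both sets. Of 14 endothelial markers all were counted, at a summed 1331 to 2526 CPM, whereas 3 of 12 fibroblast and smooth muscle, 2 of 10 epithelial and 2 of 12 blood cell markers were in the table, at 22.6 to 68.4, 18.0 to 40.3 and 2.15 to 17.8 CPM. Within each set the ranges of these sums overlapped between the groups, except for fibroblast and smooth muscle markers in HPRT-targeted A (38.8 to 64.2 CPM) and negative control A (32.98 to 38.03 CPM).

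The members did not deviate alike in the 7 libraries: of the 16 with more than 3000 coding bases, 11 were below their group in all 7, and 6 with fewer than 1500 were above it in all 7. Such counts, here and in the next paragraphs, were made for members only, so the share of all genes doing the same was not counted. MKI67, whose product coats mitotic chromosomes and is the classical proliferation marker, has the second longest coding sequence of the members, 9768 bases. It was counted at 2.58 to 13.7 CPM in the 7 libraries and at 67.9 to 532 CPM in the other 20, with no overlap. CENPF, a kinetochore protein with a coding sequence of 9342 bases, was at 9.74 to 33 CPM against 191 to 704 CPM. CENPE, the kinetochore motor (8103 bases), was at 0.201 to 8.57 CPM against 84.3 to 279 CPM, and 1 of the 7 libraries, negative control B replicate 6, held 1 count of it. The ratio of the medians of the 20 and the 7 libraries was 51.3 for CENPE, 24.0 for CENPF and 23.1 for MKI67. Such ranges and ratios, here and in the next paragraph, pool both sets, so differences between the sets are mixed into them.

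The same held, less steeply, for KIF15 and KIF20B (spindle and midzone kinesins), ASPM (a spindle pole protein), and SMC2 and SMC4 (the ATPases of condensin). FOXM1, a transcription factor of this gene program with 2403 coding bases, was at 7.74 to 44.4 CPM against 34.6 to 107 CPM, ranges that overlap. Together with FOXM1, MKI67, CENPF and CENPE, these kinesins, ASPM, SMC2 and SMC4 are the 9 members that, measured as the deviation from their group, lay below all 20 other libraries in every one of the 7. How many of all genes did so was not counted. In the opposite direction, CKS1B and CKS2, the small CDK-binding proteins with coding sequences of 237 bases, lay above all 20 other libraries in 7 and in 6 of the 7. CKS2 was at 99.4 to 314 CPM in the 7 and at 56.5 to 161 CPM in the 20; the ranges overlap over all groups, but within a group the library that stands apart was the highest in each of the 5 groups that hold one. MAD2L1 and BUB3, both proteins of the spindle checkpoint, lay above in 5 of the 7. Their coding sequences have 615 and 984 bases, but their longest transcripts 5468 and 7828.

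Across the 50 members, the correlation of the deviation with the log2 of the longest coding sequence (GENCODE 29) was between -0.82 and -0.68 in the 7 libraries, and between -0.72 and 0.60 in the other 20. The members share library and depth, so this is a description; coding length was taken up after these values were seen. Of the other 20 libraries, SMAD3 deletion replicate 1 had the lowest value, -0.72. Over the 10807 (set A) and 11015 (set B) genes with a coding length, the correlation was between -0.46 and -0.37 in the 7 libraries and between -0.29 and 0.25 in the others, so genes at large shared the direction. In the 7 libraries the median deviation of the 16 members with more than 3000 coding bases was -2.34 to -0.44 on the log2 scale, and that of all such genes (1564 in set A and 1592 in set B) -1.13 to -0.44. The median of the 20 members with fewer than 1500 was -0.17 to 0.74, and that of all such genes (5773 and 5878) 0.11 to 0.29. Of the 50 members, 15 were below their group in all 7 libraries, a count not made for all genes. Length did not sort every member: NCAPG (a condensin subunit, 3045 bases) and ANLN (anillin, which organises the contractile ring, 3372 bases) were below in 3 and 4 of the 7, and UBE2C (537 bases) and SPC25 (672 bases) in 4 each.

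**Figure D1:**
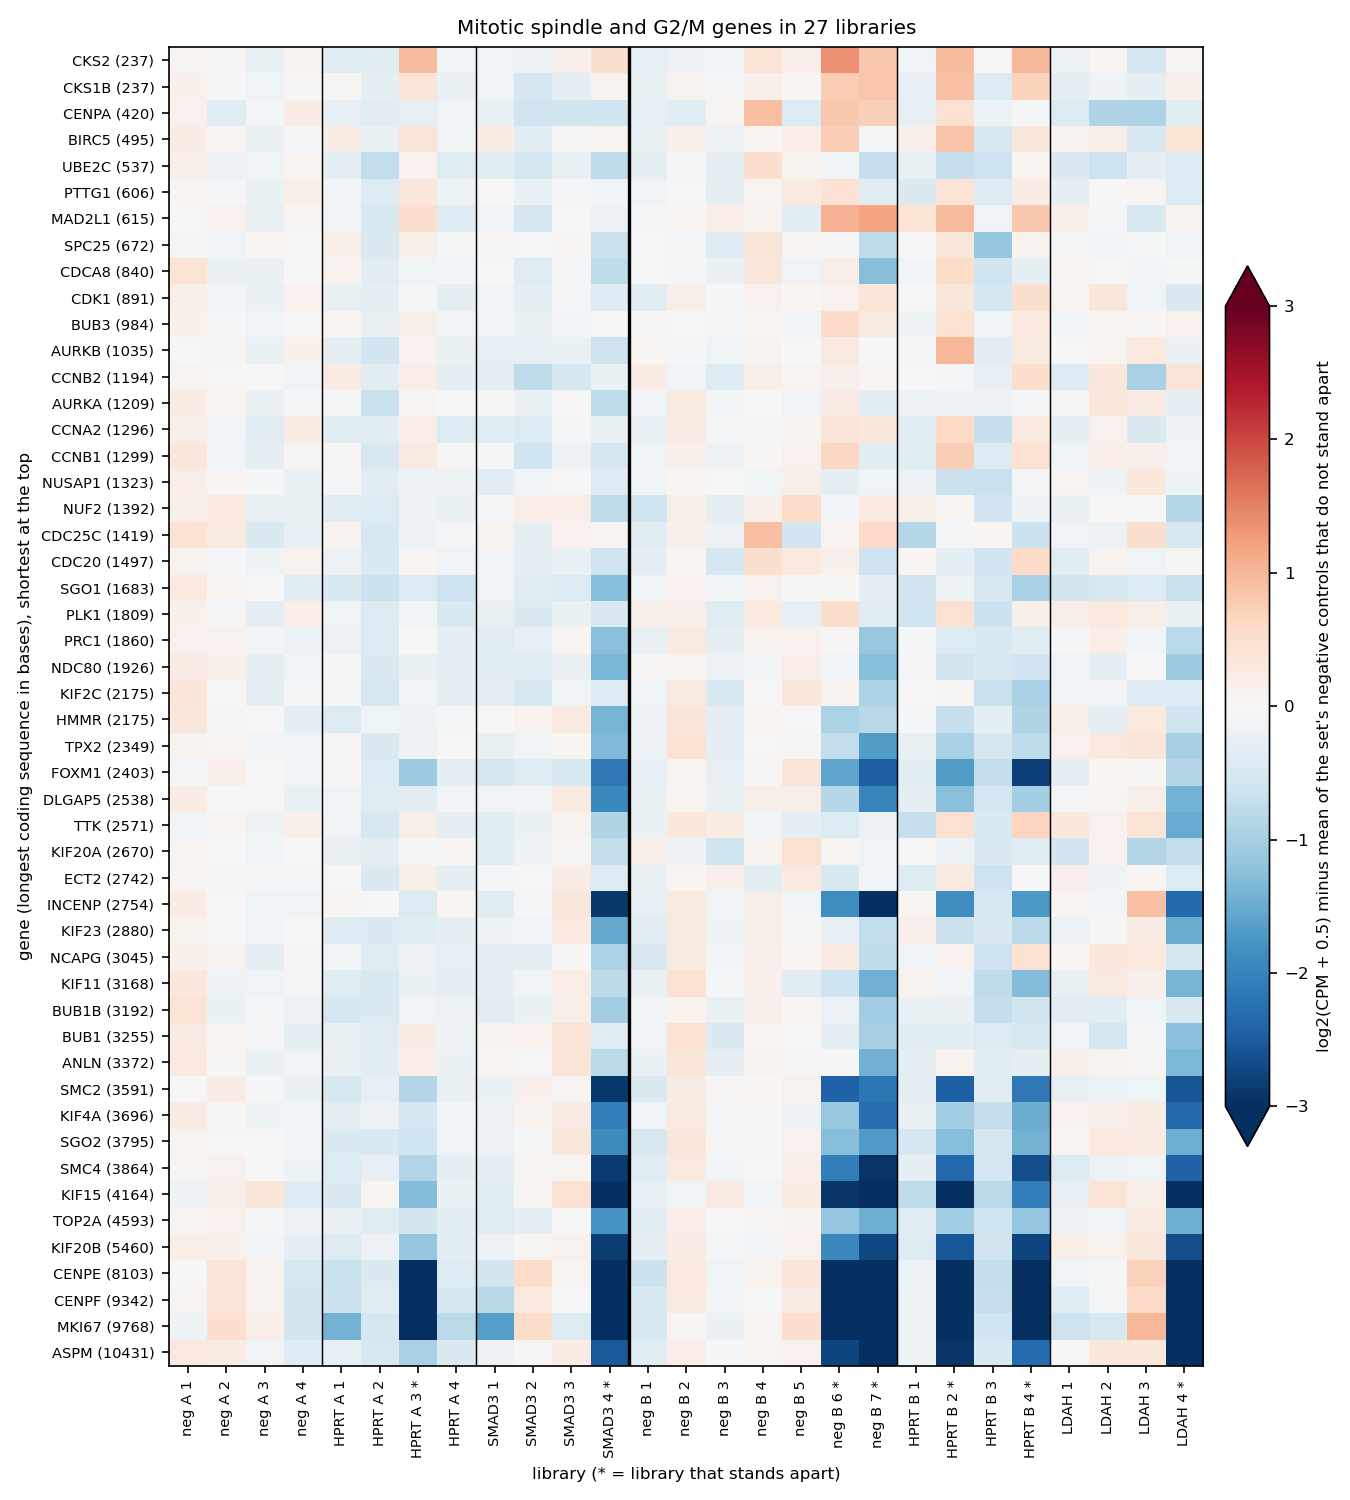
Level of each of the 50 members (rows, from the shortest coding sequence at the top to the longest at the bottom) in each of the 27 libraries (columns, by group, with the 7 that stand apart starred), as log2(CPM + 0.5) minus the mean of the negative controls of the set that do not stand apart; colours stop at 3 log2 units. The starred columns are blue in the lower rows, where CENPE, CENPF and MKI67 pass the end of the scale, and mostly not in the upper rows.

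**Figure D2:**
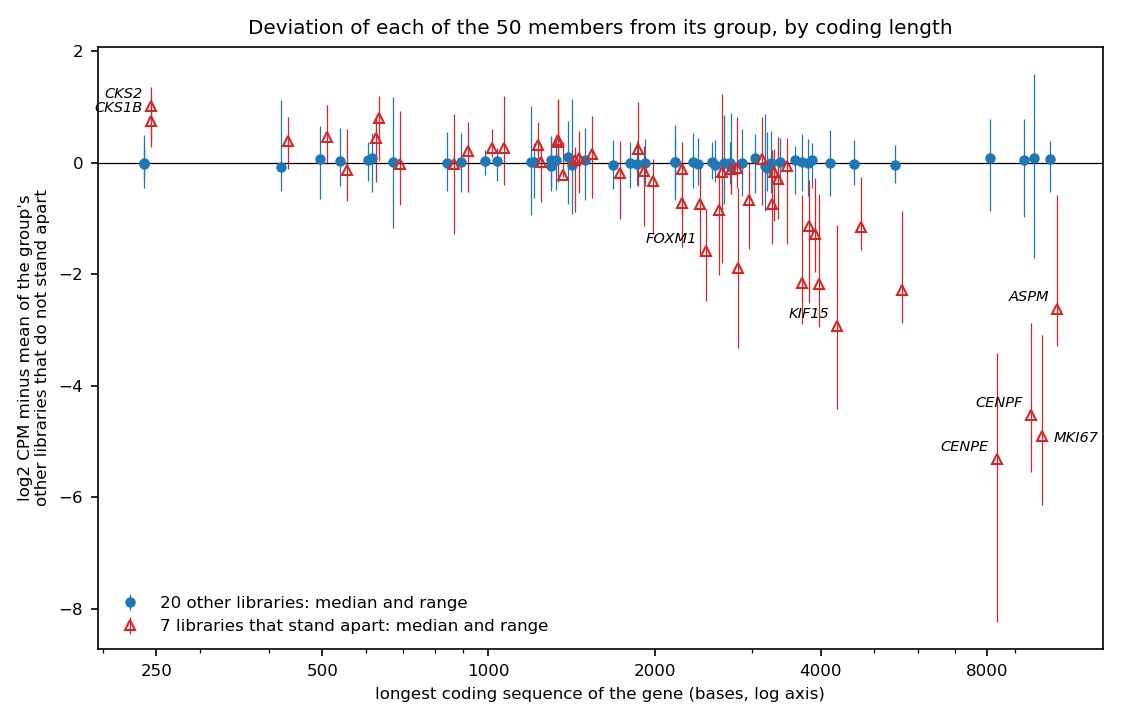
Deviation of each member from the mean of its group's other libraries that do not stand apart (log2 CPM) against its longest coding sequence in bases (log axis); circles and triangles are medians over 20 and 7 libraries and the lines their ranges. The triangles go from above 0 for CKS1B and CKS2 to below -4 for CENPE, CENPF and MKI67. The circles lie near 0 by construction, as the 20 libraries are measured against each other within groups. Their range for MKI67 is -1.71 to 1.58.

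HPRT-targeted B has 2 of these libraries among 4, and negative control A has none. Tested with edgeR's quasi-likelihood model and adjusted by Benjamini-Hochberg over all genes tested, no member and no gene passed 0.05 in any of the 9 comparisons with all libraries, a background of 0% in each. DESeq2 called 0 of the 50 members in each as well (of all genes it called 0 to 17), and limma voom with sample quality weights called 0 except for 1 member in 1 comparison, described next. What follows are therefore sizes, spreads and counts at an unadjusted p. The members share their libraries, so a count of members below 0 does not count independent results. Each library's median member difference from its set's mean (log2) had a pooled within-group SD of 0.27 for the SMAD3 deletion and its control. It was 0.34 for the LDAH deletion, and for HPRT-targeted cells 0.12 in set A, 0.29 in set B and 0.24 over both. These medians of HPRT-targeted and negative control libraries were separate in set A and overlapped in set B.

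The comparison of HPRT-targeted with negative control cells sets the 2 kinds of control against each other, and its log2 fold changes were mostly below 0 in both sets. With both sets in a single fit, 42 of 50 log2 fold changes were below 0 with a median of -0.25, against a median of -0.02 over all 11836 genes. At an unadjusted p under 0.05 (edgeR), 6 members were lower and 0 higher, where 1.39% of all genes were lower: SGO1, NUSAP1, KIF23, TOP2A, SGO2 and BUB1B. Of the 7 libraries that stand apart, SMAD3 deletion replicate 4 and LDAH deletion replicate 4 are not among the 19 control libraries of this fit. Leaving out the others kept only replicates 1 and 3 of HPRT-targeted B. Without the 7 libraries, all 50 were below 0 with a median of -0.29, and 35 had an unadjusted p under 0.05 against a background of 3.82%. No member passed the adjusted test there either (background 0.00825%). With all libraries, the count of 6 became 17 without negative control B replicate 7 (background 2.79%) and 3 without HPRT-targeted B replicate 2 (background 1.08%) or replicate 4 (background 1.17%). ACTA2, the smooth muscle actin, had 0.42 (SE 0.18) with all libraries (edgeR's unadjusted p = 0.0286) and 0.49 without the 7 (unadjusted p = 0.000970), and its part in the members' values was not tested.

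SGO1, shugoshin, which protects the cohesin that holds sister centromeres together, had the smallest p of the members in each HPRT comparison. In set A it was at 18.3, 16.05, 18.9 and 16.2 CPM in the HPRT-targeted libraries and at 31.2, 26.2, 24.9 and 19.7 CPM in the negative controls. In set B it was at 16.8, 22.9, 18.3 and 12.7 CPM in the HPRT-targeted libraries and from 21.03 to 27.96 with a median of 24.2 CPM in the 7 negative controls. The groups did not overlap in set A, and in set B 1 HPRT-targeted library, replicate 2, reached into the controls. The log2 fold change over both sets was -0.52 (SE 0.12), with edgeR's unadjusted p = 0.000344 and adjusted p = 0.938. Without the 7 libraries it was -0.57 (SE 0.13), adjusted p = 0.238 (edgeR). With limma voom, which gives less weight to libraries that vary more, SGO1 was 1 of 6 genes called (0.0507% of all), at -0.58 and an adjusted p of 0.0265. SGO1 lies at chr3:20160593-20186292 (GRCh38, minus strand), overlaps the antisense gene SGO1-AS1 and has 2 named pseudogene copies, and whether counting used the strand is not given in the sources used here. The same limit holds for other members: of the 50, 17 overlap a gene on the opposite strand and 12 have named pseudogene copies. CKS1B has 6 copies, UBE2C 4 and MKI67 1, and PLK1, FOXM1, KIF20A, KIF23 and SMC4 overlap genes on the opposite strand.

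NUSAP1, which bundles spindle microtubules, was at 108, 88.8, 102 and 102 CPM in HPRT-targeted A and 129, 117, 108 and 98.2 CPM in negative control A. It was at 146, 105, 103 and 159 CPM in HPRT-targeted B and from 137 to 186 with a median of 152 CPM in negative control B. The groups overlapped in both sets. The log2 fold change was -0.26 (SE 0.10) with all libraries and -0.29 (SE 0.10) without the 7. NUSAP1 overlaps the gene AC087721.2 on its own strand, so its count is uncertain.

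TOP2A, the topoisomerase that untangles sister chromatids, was at 544, 495, 429 and 499 CPM in HPRT-targeted A against 665, 689, 620.1 and 564 CPM in negative control A, with no overlap. In set B it was at 529, 329.5, 435 and 297 CPM against controls from 241 to 757 with a median of 661 CPM, where the low ends of both groups are libraries that stand apart. Its log2 fold change over both sets was -0.44 (SE 0.19) with all libraries and -0.39 (SE 0.08) without the 7. Without the 7 it had the smallest p of the members, with an adjusted p of 0.110 (edgeR).

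KIF23, the midzone motor of cytokinesis, had -0.33 (SE 0.14) with all libraries and -0.27 (SE 0.11) without the 7. SGO2, the second shugoshin, had -0.51 (SE 0.22) and -0.43 (SE 0.11), and BUB1B, the checkpoint protein BubR1, -0.31 (SE 0.14) and -0.43 (SE 0.12). BUB1B overlaps a read-through gene, BUB1B-PAK6, on its own strand, so its count is uncertain. In HPRT-targeted A, KIF23 was at 41.9, 40.5, 42.99 and 45.6 CPM, below all 4 negative controls at 59.5, 54.4, 50.7 and 55.3 CPM. SGO2 was at 57.02, 56.4, 50.4 and 70.2 CPM there, again below all 4 negative controls at 82.04, 76.2, 77.5 and 72.6 CPM. In set B neither gene's groups were separate.

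**Figure D3:**
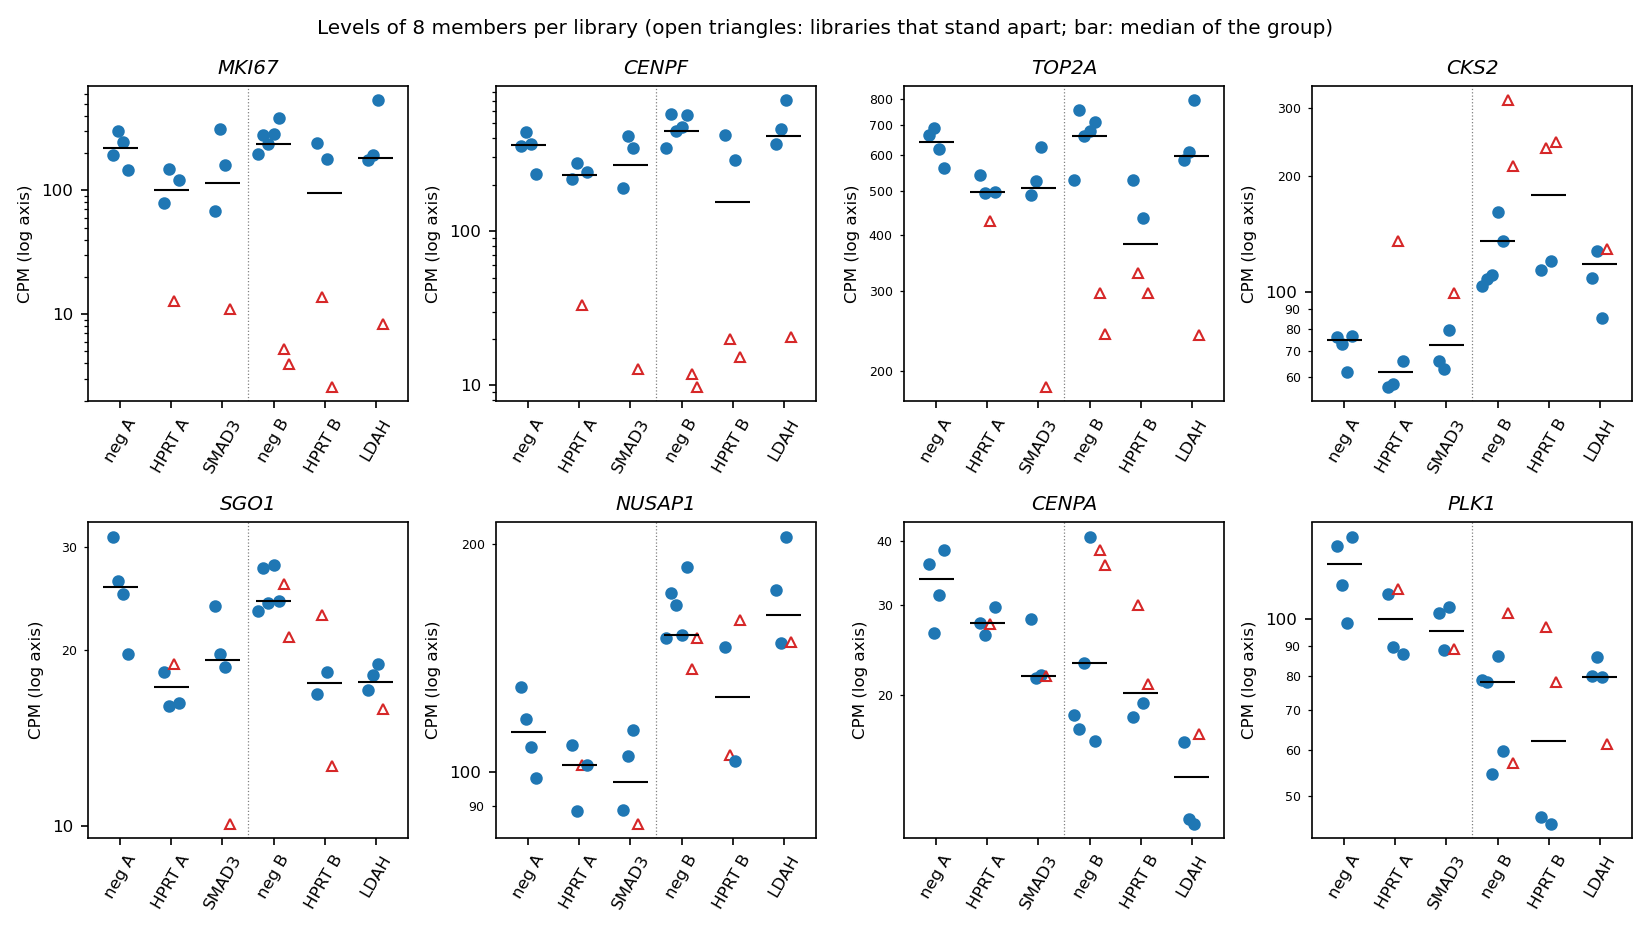
CPM (log axis) of 8 members in every library by group; filled circles are the other 20 libraries, open triangles the 7 that stand apart, bars group medians, and the dotted line divides set A from set B. For MKI67 and CENPF all triangles lie below all circles, for CKS2 they are the highest of their groups, and for SGO1 the HPRT-targeted and LDAH deletion libraries lie mostly below the negative controls.

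The largest fold changes of the members in this comparison belonged to genes with very low levels in the 7 libraries, and these also had the largest SE. MKI67 had -1.06 (SE 0.72) with all libraries and -0.68 (SE 0.17) without the 7. CENPE had -0.95 (SE 0.77) and -0.52 (SE 0.14), and CENPF -0.88 (SE 0.67) and -0.48 (SE 0.13). In set A, MKI67 was at 79.7, 147, 12.9 and 120.4 CPM in the HPRT-targeted libraries and 193, 304, 243 and 145 CPM in the controls, so 1 HPRT-targeted library, replicate 2, lay just above the lowest control. In set B, the 2 HPRT-targeted libraries that do not stand apart had 241 and 178 CPM, and the 5 such controls 195 to 382 CPM. FOXM1 had -0.61 (SE 0.32) and -0.34 (SE 0.11).

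Genes at the core of mitotic entry had small or positive values until the 7 libraries were left out. CCNB1 (cyclin B1) was at 148, 104, 174 and 147 CPM in HPRT-targeted A and at 184, 137, 117 and 149 CPM in negative control A. In set B it was at 122, 266, 118 and 217 CPM against controls from 124 to 242 with a median of 161 CPM. In set B the 2 HPRT-targeted libraries that stand apart, replicates 2 and 4, lay above all 7 controls and above 6 of them, and the other 2 lay below all 7. The log2 fold change over both sets was 0.05 (SE 0.16) with all libraries and -0.26 (SE 0.11) without the 7. CDK1, its kinase, had -0.08 (SE 0.12) and -0.28 (SE 0.10). PLK1, the polo kinase that activates cyclin B with CDK1, was at 46.1, 97.01, 44.9 and 78 CPM in HPRT-targeted B against controls from 54.5 to 102 with a median of 78.2 CPM, and over both sets had -0.21 (SE 0.15) and -0.47 (SE 0.12). Its 2 lowest libraries there were again those that do not stand apart.

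AURKA, the spindle pole kinase, was at 110.2, 71.3, 120.3 and 113 CPM in HPRT-targeted A against 131, 117, 98.6 and 108 CPM, and at 104, 104, 103 and 113 CPM in HPRT-targeted B against controls from 92.98 to 139.6 with a median of 109.8 CPM. It had -0.14 (SE 0.10) with all libraries and -0.20 (SE 0.10) without the 7. AURKB, the kinase of the chromosomal passenger complex, was at 84.4, 68.7, 111 and 87.7 CPM against 104, 105, 89.2 and 114 CPM in set A. In set B it was at 64.2, 136, 53.9 and 81.7 CPM against controls from 61.1 to 80.5 with a median of 67.9 CPM, and over both sets it had 0.05 (SE 0.15) and -0.29 (SE 0.09). BIRC5 (survivin), its partner in that complex, was at 212, 158, 236 and 168 CPM against 212, 187, 157 and 173 CPM in set A and at 232, 375, 147 and 262 CPM against controls from 176 to 345 with a median of 213 CPM in set B, with 0.13 (SE 0.15) and -0.08 (SE 0.11). CCNB1, AURKB and BIRC5 thus had values above 0 with all libraries and below 0 without those that stand apart, and AURKA was below 0 in both.

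BUB1, the kinase of the spindle checkpoint, was at 35.7, 33.7, 49.3 and 37.5 CPM in HPRT-targeted A against 49.7, 44.2, 40.4 and 34.7 CPM, and at 47.9, 48.1, 45.1 and 43.6 CPM in HPRT-targeted B against controls from 29.4 to 81.7 with a median of 56.3 CPM. It had -0.19 (SE 0.15) and -0.32 (SE 0.12). UBE2C, the ubiquitin-conjugating enzyme of the APC/C, had -0.28 (SE 0.15) and -0.46 (SE 0.12), and CDC20, its activator, -0.06 (SE 0.16) and -0.26 (SE 0.13). PTTG1, securin, which the APC/C destroys to free the sister chromatids, had -0.05 (SE 0.13) and -0.31 (SE 0.09). TTK, the checkpoint kinase Mps1, had 0.01 (SE 0.17) and -0.44 (SE 0.14). Among the motors, KIF11, which pushes the spindle poles apart, had -0.28 (SE 0.20) and -0.35 (SE 0.14), and TPX2, which starts microtubules around chromosomes, -0.27 (SE 0.19) and -0.25 (SE 0.11). CENPA, the histone of the centromere, had -0.28 (SE 0.18) and -0.28 (SE 0.17), and CCNA2, cyclin A2, -0.13 (SE 0.15) and -0.44 (SE 0.11). CENPF was at 218, 275, 33 and 241 CPM in HPRT-targeted A against 357, 437, 368 and 234 CPM, where its lowest value was the library that stands apart. None of these passed the adjusted test.

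By role and without the 7 libraries, the 13 spindle motors and microtubule proteins were all below 0 with a median of -0.29, and 11 had an unadjusted p under 0.05 (edgeR), beside the background of 3.82% of all genes. The 5 genes of chromosome structure were all below 0 with a median of -0.36, and the 8 kinetochore and centromere genes had a median of -0.36. The 8 checkpoint and APC/C genes had a median of -0.31, the 7 genes of cyclins, CDK1 and their regulators -0.26, the 2 cytokinesis genes (ANLN and ECT2) -0.33 and the 4 of the chromosomal passenger complex -0.15. Members not yet named were also below 0 without the 7 libraries: the microtubule proteins HMMR (-0.21), DLGAP5 (-0.29), PRC1 (-0.29) and the kinesin KIF4A (-0.32), the NDC80 complex subunits NUF2 (-0.30) and SPC25 (-0.27), the condensin subunit NCAPG (-0.30), and CDCA8 (-0.21) and INCENP (-0.09) of the chromosomal passenger complex. PRC1 overlaps AC068831.7 on its own strand, so its count is uncertain. With all libraries the medians followed coding length: the median was -0.04 for the 20 members with under 1500 coding bases, -0.27 for the 14 with 1500 to 3000 and -0.53 for the 16 with more than 3000. Without the 7 libraries these were -0.27, -0.29 and -0.37.

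**Figure D4:**
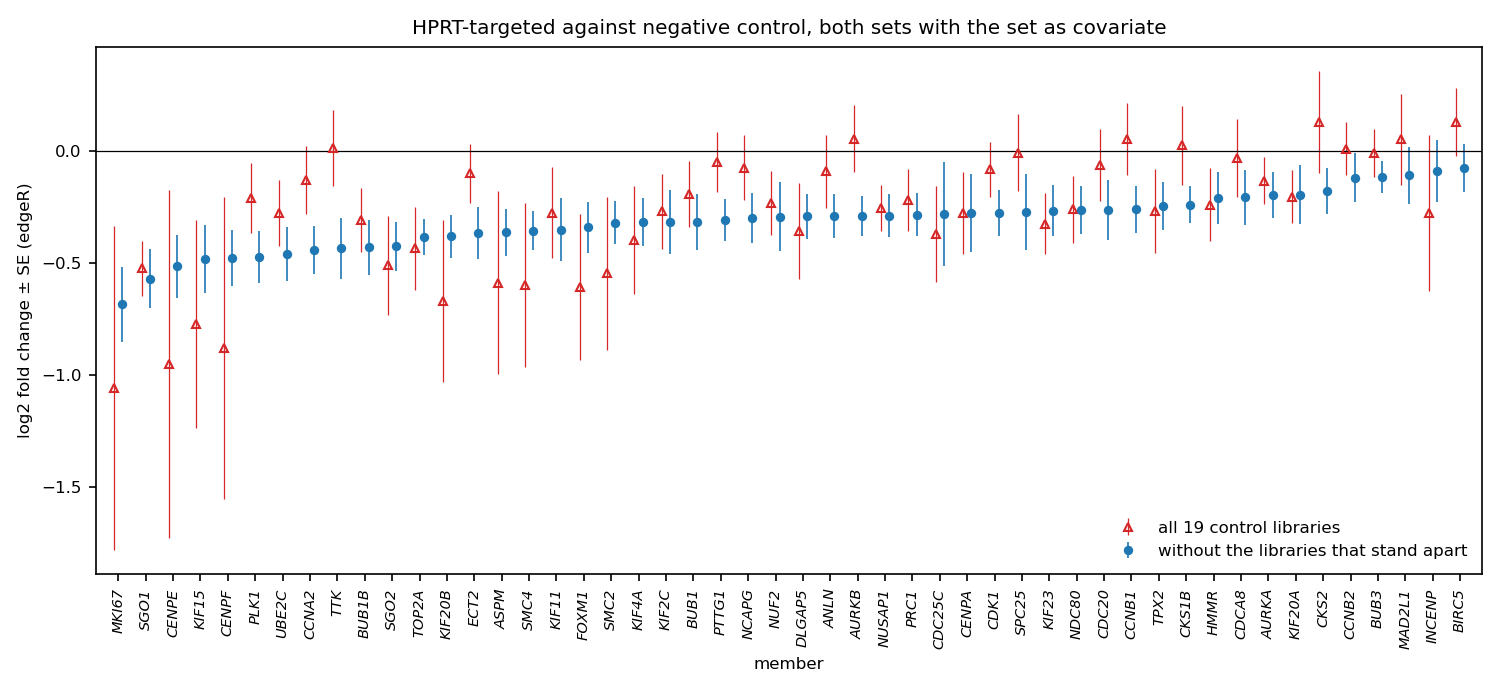
log2 fold change ± SE (edgeR) of each member in HPRT-targeted against negative control cells of both sets, with all 19 libraries (triangles) and without the libraries that stand apart (circles), ordered by the latter. All 50 circles lie below 0, between -0.68 for MKI67 and -0.08 for BIRC5, and the triangles of the long genes have the longest error lines.

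Set by set, HPRT-targeted A against negative control A had 47 of 50 members below 0 and a median of -0.23, with 1 member, SGO1, at an unadjusted p under 0.05 (edgeR) and a background of 1.12%. Leaving out 1 library moved that count to 6 without HPRT-targeted A replicate 3 (background 1.21%), to 4 without negative control A replicate 3 (1.01%) and to 2 without negative control A replicate 2 (0.818%) or HPRT-targeted A replicate 1 (0.914%). It was 0 without negative control A replicate 1 (1.22%), HPRT-targeted A replicate 2 (1.51%) or HPRT-targeted A replicate 4 (1.2%). Without HPRT-targeted A replicate 3, the only library of these groups that stands apart, and without SMAD3 deletion replicate 4, 49 of 50 were below 0, the median was -0.26 and 24 had an unadjusted p under 0.05 (background 3.02%). None passed the adjusted test (background 0.00864%). The summed fibroblast and smooth muscle markers were higher in HPRT-targeted A, as given above, and their part in these values was not tested. Of the 50 members, 7 had HPRT-targeted A libraries that all lay below all negative controls (background 2.1% of genes), and 11 without the library that stands apart (background 3.63%). HPRT-targeted B against negative control B had 36 of 50 below 0 and a median of -0.26, again with SGO1 as the single member at an unadjusted p under 0.05 (edgeR, background 0.816%). It was 3 members without negative control B replicate 7 (background 0.999%) and 2 without HPRT-targeted B replicate 1 (background 1.7%). Without the 4 libraries of these 2 groups that stand apart, and without that of the LDAH deletion, 49 were below 0, the median was -0.38 and 21 had an unadjusted p under 0.05 (background 1.85%), with none called after adjustment (background 0%). In set B, 0 members had separate groups with all libraries (background 0.178%) and 18 without those that stand apart (background 4.44%), when 2 HPRT-targeted libraries were set against 5 controls. The difference between the 2 HPRT effects (A minus B) had a median over the members of -0.01 with all libraries and 0.10 without the 7. No member had an unadjusted p under 0.05 for that difference (edgeR, 1.32% of all genes had), and 0 passed after adjustment. Without HPRT-targeted A replicate 3, HPRT-targeted B replicate 1 or HPRT-targeted B replicate 3 it was 1 member (background 1.22%, 2.36% and 3.29%), and over the fits without 1 library the median was -0.08 to 0.07.

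In the HPRT-targeted A libraries, PLK1 was at 110.1, 89.5, 112 and 87.1 CPM and in negative control A at 133, 114, 98.6 and 138 CPM, a log2 fold change of -0.28 (SE 0.14). CDK1 was at 70.7, 67.3, 79.5 and 68.5 CPM against 93.7, 78.3, 72.02 and 90.6 CPM, with -0.23 (SE 0.12), and 1 HPRT-targeted library reached the controls. KIF11 was at 30.3, 28.2, 33.8 and 31.4 CPM against 48.5, 34.7, 35.6 and 37.9 CPM, where no HPRT-targeted library reached the controls, with -0.34 (SE 0.18). CENPA was at 27.7, 26.3, 27.6 and 29.7 CPM against 36.1, 26.4, 31.5 and 38.4 CPM, with -0.25 (SE 0.14). FOXM1 in HPRT-targeted B was at 46.1, 17.5, 34.6 and 7.74 CPM against controls from 9.96 to 73.1 with a median of 48.4 CPM, with -0.78 (SE 0.49), and CDC25C, the phosphatase that activates CDK1, at 6.99, 12.5, 13.6 and 8.17 CPM against controls from 8.63 to 25.03 with a median of 13.8 CPM, with -0.52 (SE 0.33). The lowest FOXM1 values of both groups were libraries that stand apart, whereas those of CDC25C were not.

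The SMAD3 deletion against negative control A had 47 of 50 members below 0 with a median of -0.29, against 0.00 over all 11467 genes. At an unadjusted p under 0.05 (edgeR), 9 members were lower and 0 higher (background 2.74%): CENPA, CCNB2, UBE2C, PLK1, NDC80, FOXM1, SGO1, KIF2C and AURKB. This median rested in part on a single library. Without SMAD3 deletion replicate 4 it was -0.12, with 34 of 50 below 0 and 5 at an unadjusted p under 0.05 (background 2.83%). The count was 15 without SMAD3 deletion replicate 3 (background 2.98%), 5 without SMAD3 deletion replicate 2 (3.74%), 4 without negative control A replicate 2 (1.88%) and 2 without negative control A replicate 1 (2.12%). Without SMAD3 deletion replicate 4 and HPRT-targeted A replicate 3, which shares the fit, 36 of 50 were below 0, the median was -0.13 and 11 had an unadjusted p under 0.05 (edgeR, background 5.35%). None passed the adjusted test (background 0.00864%).

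CENPA was at 28.1, 21.6, 21.9 and 21.8 CPM in the SMAD3 deletion and 36.1, 26.4, 31.5 and 38.4 CPM in negative control A, with a log2 fold change of -0.50 (SE 0.14), edgeR's unadjusted p = 0.00307 and adjusted p = 0.702. Only SMAD3 deletion replicate 1 reached above the lowest control. CENPA had -0.48 (SE 0.14) once the libraries that stand apart were left out. CENPA overlaps SLC35F6 on its own strand, so its count is uncertain. CCNB2, cyclin B2, was at 60.3, 43.6, 52.6 and 65.2 CPM against 78.4, 75.6, 74.3 and 69.5 CPM, groups that did not overlap, with -0.43 (SE 0.16) and -0.52 (SE 0.13) without the libraries that stand apart.

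UBE2C was at 72.2, 63.2, 78.2 and 54.04 CPM against 105, 82.9, 84.5 and 97.3 CPM, again without overlap, with -0.46 (SE 0.17) and -0.38 (SE 0.12). PLK1 was at 102, 88.6, 105 and 88.8 CPM against 133, 114, 98.6 and 138 CPM, with -0.33 (SE 0.14) and -0.30 (SE 0.12), and 2 SMAD3 deletion libraries reached above the lowest control. FOXM1 was at 67.1, 73.9, 69.4 and 21.3 CPM against 93.4, 107, 94.7 and 88.8 CPM, so that all 4 deletion libraries lay below all 4 controls, with -0.72 (SE 0.31) and -0.45 (SE 0.11). NDC80, the kinetochore's link to microtubules, was at 57.6, 55.9, 61.6 and 27.4 CPM against 85.8, 79.5, 59.9 and 65.1 CPM, with -0.52 (SE 0.21) and -0.32 (SE 0.13), and 1 deletion library lay above the lowest control.

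By the share of separate groups, 4 members had SMAD3 deletion libraries that all lay below all negative controls (background 2.62%). Spindle motors and microtubule proteins had a median of -0.26 with all libraries and -0.01 without those that stand apart, with 13 and 7 of 13 below 0. Cyclins, CDK1 and their regulators had -0.22 and -0.28. By coding length, the median of the members over 3000 bases went from -0.32 to -0.01, that of the members under 1500 bases from -0.21 to -0.16. Set against HPRT-targeted A instead, with which the deletion shares the cutting of the genome, the median of the members was -0.05 with all libraries and 29 of 50 were below 0. The smallest p there was that of CCNB2, at -0.41 (SE 0.16), the single member with an unadjusted p under 0.05 (edgeR, background 5.83%). In either direction this count was 10 without SMAD3 deletion replicate 4 (background 13.6%), where the median was 0.06 and 19 were below 0. It was 2 without HPRT-targeted A replicate 2 (5.92%) or SMAD3 deletion replicate 1 (5.71%), and 0 without HPRT-targeted A replicate 1 (3.97%) or SMAD3 deletion replicate 2 (5.51%). Without the libraries that stand apart 10 of 50 were below 0, the median was 0.12, 13 were higher (background 6.73%) and 2 lower (background 7.62%) at an unadjusted p under 0.05, and 0 were called after adjustment (background 0.475%).

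The LDAH deletion against negative control B left the members as a whole near 0: 28 of 50 were below 0 with a median of -0.02, against 0.01 over all 11769 genes. At an unadjusted p under 0.05 (edgeR), 3 were lower and 0 higher, beside a background of 3.33%. Without the libraries that stand apart the counts were 26 of 50, a median of -0.00 and 3 (background 8.54%), with 0 members called after adjustment where 1.74% of all genes were. Without LDAH deletion replicate 4 alone, the median was 0.11 and 18 were below 0.

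CENPA was the member with the smallest p, at 16.2, 11.5, 11.2 and 16.8 CPM in the LDAH deletion and from 16.3 to 40.8 with a median of 23.1 CPM in negative control B. Its log2 fold change was -0.97 (SE 0.30), with edgeR's unadjusted p = 0.00570 and adjusted p = 0.850, and -0.84 (SE 0.29) without the libraries that stand apart. The groups overlapped at 1 deletion library and the lowest control, and the spread of the controls was wide. SGO1 was at 17.1, 18.1, 18.9 and 15.8 CPM against controls from 21.03 to 27.96 with a median of 24.2 CPM, with no overlap, and had -0.51 (SE 0.19) with all libraries and -0.50 (SE 0.21) without those that stand apart. SGO1 was the 1 member whose groups were separate (background 0.722%). KIF20A, a kinesin of the midzone, was at 30.3, 49.7, 24.5 and 27.03 CPM against controls from 29.9 to 61.8 with a median of 47.97 CPM, with -0.48 (SE 0.23).

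The next in order were genes with short coding sequences. CKS2 was at 109, 128, 85.6 and 129 CPM against controls from 104 to 314 with a median of 136 CPM, with -0.54 (SE 0.32), and MAD2L1 at 34.4, 29.6, 22.5 and 33.6 CPM against controls from 24.9 to 71.3 with a median of 33.6 CPM, with -0.48 (SE 0.30). In both, the highest control values came from the 2 negative controls that stand apart, and leaving those that stand apart out gave -0.21 (SE 0.16) and -0.13 (SE 0.21). UBE2C had -0.35 (SE 0.21) and -0.47 (SE 0.18).

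Against HPRT-targeted B, the LDAH deletion had 20 of 50 members below 0 and a median of 0.10, and 1 member had an unadjusted p under 0.05 (edgeR, background 4.22%). This was NUSAP1, at 0.39 (SE 0.18). In either direction this count was 6 without LDAH deletion replicate 4 (background 9.18%), all higher. Without HPRT-targeted B replicate 1 it was 3 (6.37%), 1 lower and 2 higher. Without HPRT-targeted B replicate 3 it was 3 (5.78%), all lower. It was 0 without LDAH deletion replicate 1 (3.38%), LDAH deletion replicate 3 (2.57%) or HPRT-targeted B replicate 2 (3.27%). Without HPRT-targeted B replicate 3 the median was 0.01. Without the libraries that stand apart 6 were below 0, the median was 0.34 and 18 were higher at an unadjusted p under 0.05 (background 3.72%). None was called after adjustment (background 0.634%), and KIF20B came nearest with 0.67 (SE 0.16) and an adjusted p of 0.0605 (edgeR). The difference between the deletions' effects, SMAD3 minus LDAH, had a median over the members of -0.27 with all libraries and -0.08 without the 7. Of the 50, 0 had an unadjusted p under 0.05 for that difference with all libraries (edgeR, background 3.64%). The 2 deletions were made in different sets with different controls.

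**Figure D5:**
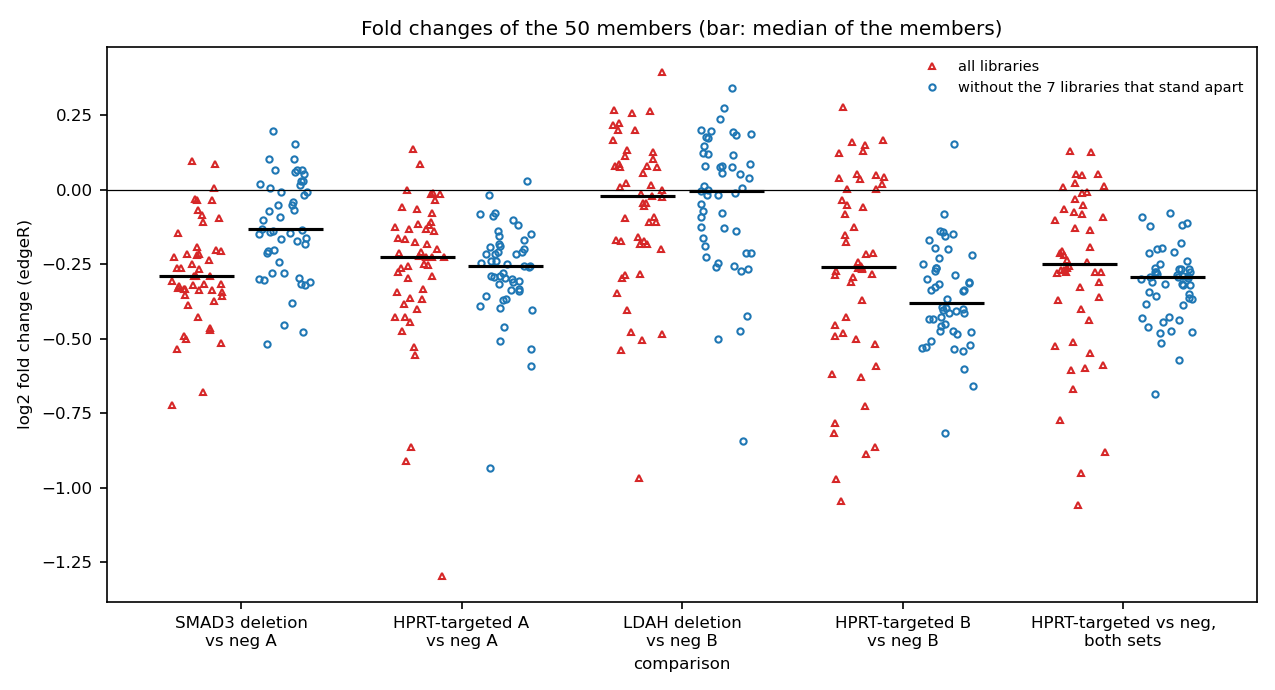
log2 fold changes (edgeR) of the 50 members, 1 point each, in 5 comparisons with the negative control, with all libraries (triangles) and without the 7 that stand apart (circles); bars are medians. Comparisons of the same set share their controls. The circles of both HPRT comparisons lie almost wholly below 0, with medians of -0.26 and -0.38, those of the LDAH deletion are spread around 0, and those of the SMAD3 deletion have a median of -0.13.

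Other genes of the cell cycle gave these counts, from lists that were also chosen with earlier results known. Of all genes, 53.2% were below 0 in the HPRT-targeted cells of both sets with all libraries. The share was 49.7% in the SMAD3 deletion and 48.3% in the LDAH deletion. Of 54 further mitotic genes, 42 were below 0 in the HPRT-targeted cells of both sets with a median of -0.15, and 53 with -0.30 without the 7 libraries. NCAPD2, a condensin subunit, had -0.44 (SE 0.14) and -0.49. In the SMAD3 deletion 47 of the 54 were below 0 with a median of -0.29, and 41 with -0.18 without the libraries that stand apart. PLK4, the kinase of centriole duplication, had -0.67 (SE 0.20) and -0.54, and CENPW, a kinetochore protein, -0.42 (SE 0.11) and -0.49. In the LDAH deletion 34 of the 54 were below 0 with a median of -0.12.

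Of 30 G1/S genes, which serve DNA replication, 24 were below 0 in the HPRT-targeted cells of both sets with a median of -0.18, 27 in the SMAD3 deletion with -0.26 and 19 in the LDAH deletion with -0.15. Without the libraries that stand apart the medians were -0.28, -0.19 and -0.09. PCNA, the sliding clamp of replication, had -0.66 (SE 0.18) in the LDAH deletion and MCM7, a subunit of the replicative helicase, -0.44 (SE 0.13) in the SMAD3 deletion. Subunits of the APC/C, which are made throughout the cycle, had medians of 0.04, 0.06 and -0.04 over 13 genes, the 9 cohesin genes -0.16, -0.14 and 0.05, and the 16 genes of DREAM and MuvB 0.04, -0.07 and -0.26. When the libraries that stand apart were left out these were -0.06, -0.04 and 0.03 for the APC/C, -0.10, 0.04 and 0.03 for cohesin, and -0.11, -0.07 and -0.19 for DREAM and MuvB, so several signs differed. Of 14 genes that control mitotic entry, 8, 9 and 9 were below 0, beside 53.2%, 49.7% and 48.3% of all genes. CDC25B, a phosphatase that activates CDK1, had -0.35 (SE 0.15) in the HPRT-targeted cells and -0.57 (SE 0.18) in the SMAD3 deletion, and ENSA, an inhibitor of the phosphatase PP2A-B55, -0.72 (SE 0.23) in the LDAH deletion.

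In the same cells, CDKN1A, which encodes the CDK inhibitor p21, was the 1 of 5 CDK inhibitor genes higher at an unadjusted p under 0.05 in all 3 comparisons with all libraries, where 1.81%, 4.05% and 1.28% of all genes were. It had 0.51 (SE 0.14) in the HPRT-targeted cells of both sets, with edgeR's unadjusted p = 0.00200, 0.45 (SE 0.19) in the SMAD3 deletion (unadjusted p = 0.0332) and 0.54 (SE 0.22) in the LDAH deletion (unadjusted p = 0.0292). Leaving out the libraries that stand apart gave 0.60 (edgeR's unadjusted p = 2.47e-05), 0.28 (unadjusted p = 0.0730) and 0.55 (unadjusted p = 0.00154), so it no longer passed in the SMAD3 deletion. None passed the adjusted test with all libraries. The comparisons of a set share their negative controls, so these values are not independent of each other, and the part of the 7 libraries, of ribosomal protein counts or of CDKN1A in the members' values was not tested.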

How the data were processed

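The deposited table holds whole-number read counts per gene from QuantSeq 3' FWD libraries, sequenced for 86 cycles, per the labels' protocols. Per the submitters' processing notes, edgeR 3.24.3 and the build hg38 were used. Which aligner and counter made the counts is not given in the sources used here, and neither is the meaning of the numbers in the library names. Symbols came from a current gene table for 13949 genes and from GENCODE 29 for 57; 2 had none. Reads carry no molecular identifiers, so a floor of 3 counts, which is 0.387 to 0.875 CPM, covers counting error only. No other preparation of the counts by the authors is recorded.

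The members and all gene lists were chosen with earlier results of these data known. The main test was edgeR 4.0.16 (R 4.3.3): TMM normalisation, filterByExpr, quasi-likelihood F test, two-sided, with Benjamini-Hochberg adjustment over all genes tested and a threshold of 0.05. Set A (12 libraries) and set B (15) were fitted separately, the HPRT comparison over 19 control libraries with the set as a covariate, and differences of effects over all 27. The script was checked on simulated counts. The members chosen for values by library were the 6 with the smallest p in each comparison with a negative control and others fixed by role. For some of them, such as BUB1B, or KIF23 and SGO2 in set B, not every library's value is printed. Negative control B is given by its range. Of other lists, at most the 4 genes with the smallest p in a comparison were named; members named beyond these were chosen after their values were seen. Libraries that stand apart had a median correlation with their set (genes with a mean of at least 10 CPM) more than 3 scaled median absolute deviations below that of the set. Alternatives were DESeq2 1.42.0, limma 3.58.1 voom with sample quality weights, DESeq2 size factors, 2 filters, only the compared groups, and leaving out each library. Libraries of a group differed beyond sampling noise (chi-square per degree of freedom 3.12 to 84.5), so none was counted as a duplicate.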

Additional observations from a re-analysis of the deposited data

Results flagged for a closer look

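Among the members chosen for values by library, 150 sets of values of a gene within a group were examined for a library far from the others, measured by its gap to the nearest over the whole range of the group. Of these, 12 passed the critical value; chance flags about 5% (1 in 20) of such groups. In 9 of the 12 the far library was one of the 7 that stand apart, and in 9 it was the lowest. All values below are CPM.

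The lowest library stood alone for FOXM1 (21.3), NDC80 (27.4) and AURKB (66.1) in SMAD3 deletion replicate 4, for CENPF (33) in HPRT-targeted A replicate 3, for SGO2 (34.5) in LDAH deletion replicate 4 and for NDC80 (26.6) and BUB1B (27.9) in negative control B replicate 7. The other 2 lowest were AURKA (71.3) in HPRT-targeted A replicate 2 and CDC25C (12.5) in SMAD3 deletion replicate 2, libraries that do not stand apart. The highest library stood alone for BIRC5 (345) in negative control B replicate 6, for AURKA (113) in HPRT-targeted B replicate 4 and for CENPA (28.1) in SMAD3 deletion replicate 1. In AURKA of HPRT-targeted B, the other 3 libraries lay within 103 to 104 CPM, so a small gap passed the critical value.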

How the results depend on the processing

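No paired analysis was made, because the replicate numbers were given in accession order and the numbers in the labels are not shared between groups. The label numbers of HPRT-targeted A (26, 28, 30 and 32) and negative control A (27, 29, 31 and 33) alternate, as some do in set B. Those of the SMAD3 deletion (10 to 13) and the LDAH deletion (50, 51, 53 and 54) lie apart from their controls. If they mark an order of handling, it cannot be told apart from the deletion. The adjusted count of members was 0 in all 9 comparisons under every alternative run, except that limma voom called 1 member (SGO1) in the HPRT comparison over both sets. The median log2 fold change of the members over leave-one-out fits ranged from -0.41 to -0.12 for the SMAD3 deletion (lowest without SMAD3 deletion replicate 3, highest without replicate 4), from -0.29 to -0.16 for HPRT-targeted A, from -0.09 to 0.11 for the LDAH deletion, from -0.33 to -0.18 for HPRT-targeted B and from -0.29 to -0.20 for HPRT in both sets. For the SMAD3 deletion against HPRT-targeted A it ranged from -0.15 to 0.06, and limma voom and leaving out the libraries that stand apart both gave 0.12. Many named members were picked by their small p in these data, and most alternatives left out only 1 library. No member passed the adjusted threshold in the main fit, so staying on its side says little of robustness. Counts at an unadjusted p moved far more, as given above for libraries left out. Members lower at limma voom's unadjusted p under 0.05 were 17 in HPRT-targeted A, 8 in HPRT-targeted B and 32 over both sets. In the SMAD3 and LDAH deletions, also against the negative control, voom gave 10 and 3. With only the compared groups in edgeR's fit, HPRT-targeted A had 11, HPRT-targeted B 1, and the SMAD3 and LDAH deletions 6 and 2. The share of all genes is not given for these counts. Of 871 alternative values for named members, 861 kept their direction and side of the threshold, as did all those of 39 of 43 results. The exceptions lay in the HPRT comparison over both sets: SGO1 passed with voom, and 3 of the named members changed sign. Over all 50, the members above 0 there went from 8 to 0 without the libraries that stand apart. CCNB1 went from 0.05 to -0.15 with voom and -0.26 without the libraries that stand apart, and leave-one-out fits gave -0.079 to 0.13 (-0.079 without HPRT-targeted B replicate 2, -0.01 without replicate 4). AURKB went from 0.05 to -0.27 and -0.29, with leave-one-out values of -0.14 to 0.12, the lowest without HPRT-targeted B replicate 2. BIRC5 went from 0.13 to -0.072 and -0.078. The cause was not tested. With TTTGAA alone as the CHR, 50.9% of the members' promoters held both motifs, against 54.7%. Depth limits CENPE in the libraries that stand apart, where as few as 1 count was behind a value.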
